A study of Mus musculus with 9 samples.

Results

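The heat shock and protein folding stress genes described here are 10 mouse genes: Hspa1a, Hspa1b, Hspa8, Hsph1, Dnajb1, Hsp90aa1, Hspb1, Cryab, Hspa5 and Ddit3. They were found as the probe sets whose only gene symbol in the platform annotation is one of these names, which gave 15 of the 23521 probe sets with 1 symbol, on a table of 33793 probe sets. All 15 passed the filter on dim signals and are among the 13650 probe sets tested. RNA came from snap-frozen hearts of mice aged 2 months, with 1 array for each of 9 hearts. Of these, 3 were Col4a3-/-OPN-/- (no Col4a3 and no osteopontin, the product of Spp1), 3 were Col4a3-/- (no Col4a3, a chain of type IV collagen in basement membranes) and 3 were wild type. The Col4a3-/-OPN-/- and Col4a3-/- hearts thus share the loss of Col4a3, and no group lacks osteopontin alone. Col4a3-/- mice are a model of Alport syndrome, an inherited disease of the kidney, and the title of the series concerns heart failure with preserved ejection fraction in these mice. The labels give neither the sex of the mice nor any heat, drug or other stress treatment.

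Cells answer unfolded protein in the cytosol through HSF1, a transcription factor that binds heat shock elements, repeats of GAA in alternating orientation, and switches on chaperone genes such as Hspa1a and Hspa1b. Unfolded protein in the endoplasmic reticulum is sensed by separate membrane proteins, whose signals raise the lumenal chaperone gene Hspa5 and, when stress is severe, Ddit3, which encodes the transcription factor CHOP. In heart muscle the constitutive chaperone Hspa8 and the small heat shock protein Cryab are abundant at rest and help to keep the contractile apparatus folded.

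All values are log2 signals, so a difference of 1 is a doubling, and a signal of one probe set says nothing about its level relative to another gene. Array medians lay between 5.18 and 5.24, and Pearson's r between arrays was 0.936 to 0.986 over the tested probe sets. The mean signal of 11 cardiomyocyte markers was 11.67 to 11.98 in all 9 hearts. The Col4a3 probe set was dim, at 4.87 to 5.26 in Col4a3-/-OPN-/-, 4.96 to 5.27 in Col4a3-/- and 5.07 to 5.52 in wild type hearts, and whether its probes fall inside the deletion is unknown, so it does not check the labels. Hearts differed in other ways than genotype. Y-linked genes (3 measured of 4 listed) averaged 4.53 to 4.64 in Col4a3-/-OPN-/- replicate 2 and Col4a3-/- replicates 1 and 3, and 7.003 to 7.40 in the other hearts. In Col4a3-/- replicate 3, markers of endothelial activation and the acute phase averaged 9.29, against 6.50 to 7.23 elsewhere, and liver markers 7.70, against 5.43 to 5.77. In Col4a3-/- replicate 2, airway markers averaged 7.92 and fat markers 9.53, against highs of 6.41 and 8.26 elsewhere. Smooth muscle and pericyte markers (7 of 7 measured) averaged 8.48 to 8.56 in Col4a3-/-OPN-/-, 7.51 to 7.97 in Col4a3-/- and 8.54 to 8.56 in wild type hearts. Atrial markers (6 of 6 measured) averaged 8.70 and 8.90 in Col4a3-/- replicates 1 and 3, and 9.97 to 10.41 in the other hearts. Col4a3-/- replicate 3 also held the highest value of the 9 hearts for 21.3% and the lowest for 26.1% of all tested probe sets, more than any other heart. Fewer cells of a type and less RNA per cell cannot be told apart in whole hearts.

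Promoter sequences were found for 7 of the 10 genes in a RefSeq table of assembly GRCm38.p6. The table had no entry for Hspa8, Hsp90aa1 and Cryab. The 4 shown are those of the 2 inducible HSP70 genes, which varied most among hearts, of Hsph1, which of the 10 genes varied most among Col4a3-/- hearts, and of Hspa5, the marker of the other stress pathway. Each runs 5′ to 3′ over the 250 bases before the transcription start. Capitals mark a heat shock element, searched as GAANNTTC or TTCNNGAA, or in Hspa5 an endoplasmic reticulum stress element, searched as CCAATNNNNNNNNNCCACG, all on both strands and as exact matches. They lie at chr17:34972157-34972406 on the minus strand (Hspa1a), chr17:34959239-34959488 on the minus strand (Hspa1b), chr5:149636337-149636586 on the minus strand (Hsph1, the first of its 2 starts in the table) and chr2:34771840-34772089 on the plus strand (Hspa5).
Hspa1a: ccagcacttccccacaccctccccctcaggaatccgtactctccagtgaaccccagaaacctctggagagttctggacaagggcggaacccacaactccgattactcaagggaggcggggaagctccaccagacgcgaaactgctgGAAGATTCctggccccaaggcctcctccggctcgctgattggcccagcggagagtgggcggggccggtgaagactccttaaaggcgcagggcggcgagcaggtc
Hspa1b: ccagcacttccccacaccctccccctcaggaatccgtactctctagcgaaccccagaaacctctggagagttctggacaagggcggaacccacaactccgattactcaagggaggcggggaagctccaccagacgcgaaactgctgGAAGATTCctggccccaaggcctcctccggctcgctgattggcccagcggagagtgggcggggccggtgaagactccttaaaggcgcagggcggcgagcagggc
Hsph1: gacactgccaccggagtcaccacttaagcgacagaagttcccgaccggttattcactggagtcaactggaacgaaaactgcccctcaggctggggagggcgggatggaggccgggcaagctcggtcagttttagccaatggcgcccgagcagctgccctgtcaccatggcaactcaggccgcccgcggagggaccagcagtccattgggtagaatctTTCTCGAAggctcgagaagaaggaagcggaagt
Hspa5: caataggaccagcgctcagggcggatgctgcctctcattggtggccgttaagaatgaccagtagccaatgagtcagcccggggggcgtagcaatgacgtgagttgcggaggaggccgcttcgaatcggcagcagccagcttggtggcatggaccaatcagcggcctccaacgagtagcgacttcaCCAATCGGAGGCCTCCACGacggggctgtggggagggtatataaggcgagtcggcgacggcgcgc

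The upstream sequences of Hspa1a and Hspa1b were identical at 247 of 250 bases (98.8%), and each held 1 heat shock element at the same place, beginning at position -104 from the start. In windows that also take in the first 50 transcribed bases (300 in all), Hspb1 had 2 such elements, at -117 and -97. Hsph1 had 3, at -33, 37 and 42, of which the last 2 overlap. None was found in the windows of Hspa5, Dnajb1 and Ddit3. Of all 32851 windows in the table, 15.1% held at least 1 heat shock element, 1.96% at least 2 and 0.256% at least 3. The endoplasmic reticulum stress element was found in 0.119% of windows, and among the 7 genes with a promoter here in Hspa5 alone, beginning at -65. These matches describe the letters and do not show that a factor is bound in these hearts.

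None of the 10 genes passed the test for a difference between genotypes, given the spread among hearts. In 1 limma fit over all 9 hearts with Benjamini-Hochberg adjustment over all tested probe sets, 0 of the 15 probe sets passed an adjusted p of 0.05 in Col4a3-/- against wild type hearts (0.0% of all 13650 passed). The count was 0 of 15 in Col4a3-/-OPN-/- against Col4a3-/- hearts, where 6 probe sets in all passed (0.044%), and 0 of 15 in Col4a3-/-OPN-/- against wild type hearts (0.0%). At an unadjusted limma p under 0.05, 1 of 15 probe sets was found in the first comparison (8.35% of all tested), a lower one (5.96% lower and 2.39% higher over all). In the second there were 5 of 15 (13.6%), of which 4 were lower (5.03% over all) and 1 higher (8.58%). These 4 were probe set 17286958 of Hspb1 and probe sets 17434475, 17548379 and 17548744 of Hspa8, so they are not 4 genes. Probe sets 17548379 and 17548744 read almost alike (Pearson's r of 0.998). Probe set 17516365 of Hspa8, with the highest mean of that gene, had 0.06 there and was not among the 5. The Hspb1 probe set 17286958 passed the filter only through the other genotypes, so no result is drawn from its p-values. In the third there was 1 of 15 (3.68%), a lower one (1.79% lower and 1.89% higher over all). That was the same Hspb1 probe set, and with it left aside none of the others was under 0.05 there. The p-values weigh each difference of group means against the spread among hearts of the same genotype, moderated over all tested probe sets. The comparisons share hearts, so their differences are not independent.

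The median difference over the 15 probe sets was -0.10 in Col4a3-/- minus wild type, against -0.02 over all tested probe sets, with 9 of 15 below 0 (55.0% of all tested). It was -0.02 in Col4a3-/-OPN-/- minus Col4a3-/- hearts, against 0.04, with 8 of 15 below 0 (42.3%). It was -0.09 in Col4a3-/-OPN-/- minus wild type hearts, against 0.01, with 11 of 15 below 0 (46.9%). With 1 probe set per gene, the one with the highest mean signal, the medians over the 10 genes were -0.11, 0.10 and -0.03 in the same order. Of these 10 genes, 8, 3 and 6 were below 0, so the count for Col4a3-/-OPN-/- minus Col4a3-/- hearts depends on the probe sets taken. A limma F-test for any difference among the 3 genotypes gave no adjusted p below 0.4075 for the 15 probe sets (0.0147% of all tested passed 0.05). Without adjustment 2 of 15 were under 0.05 (9.3% of all tested), one of Cryab and again 17286958 of Hspb1.

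**Figure D1:**
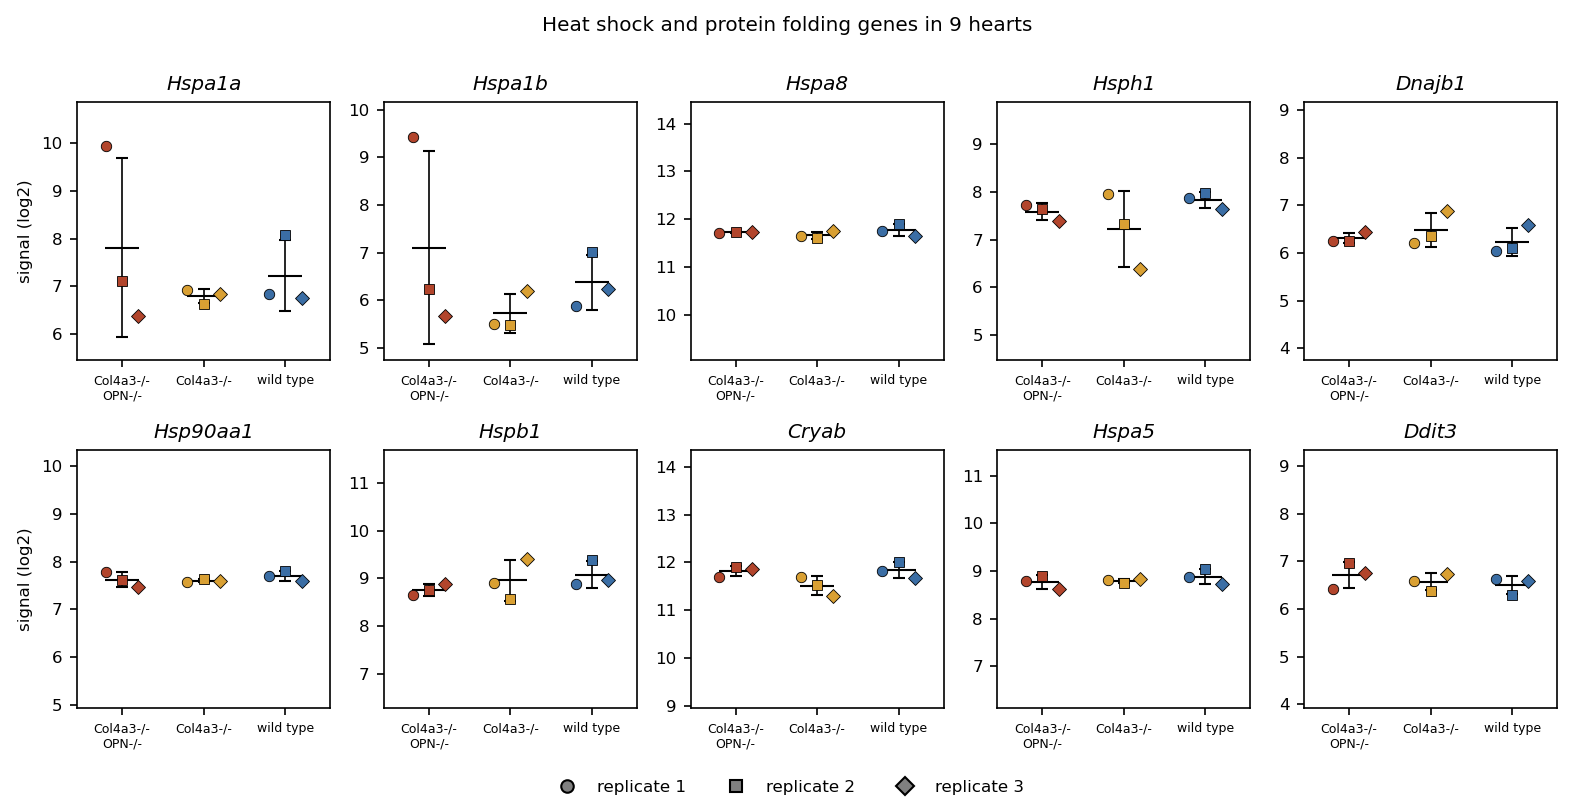
Log2 signal of the 10 genes in each heart, 1 panel per gene and 1 probe set per gene (the one with the highest mean), with all panels spanning the same number of log2 units. Points are hearts, the symbol gives the replicate, the bar is the mean and the whiskers are the SD (n = 3 per genotype). Hspa1a and Hspa1b reach 9.94 and 9.43 in Col4a3-/-OPN-/- replicate 1, Hsph1 is lowest in Col4a3-/- replicate 3 at 6.38, and Hspa8 and Hsp90aa1 lie almost flat.

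Hspa1a and Hspa1b encode the stress-inducible cytosolic HSP70, near-identical proteins from neighbouring genes, and they set 1 heart apart rather than a genotype. Hspa1a (probe set 17344132) was at 9.94, 7.10 and 6.38 in Col4a3-/-OPN-/- replicates 1 to 3, at 6.92, 6.63 and 6.84 in Col4a3-/- replicates 1 to 3, and at 6.84, 8.08 and 6.75 in wild type replicates 1 to 3. Col4a3-/-OPN-/- replicate 1 was the highest of the 9 hearts and replicate 3 of the same genotype the lowest, so the groups overlapped in each comparison. Hspa1b (17344126) was at 9.43, 6.23 and 5.66 in Col4a3-/-OPN-/-, at 5.51, 5.48 and 6.19 in Col4a3-/-, and at 5.88, 7.01 and 6.24 in wild type hearts. The same 2 hearts, Col4a3-/-OPN-/- replicate 1 and then wild type replicate 2, were highest for both genes.

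Hspa1b in Col4a3-/-OPN-/- replicate 1 was 3.48 log2 units above the mean of the other hearts of its genotype, an 11.2-fold difference, and 0 of the other tested probe sets were further above in that heart. Hspa1a was 3.19 above, a 9.16-fold difference, and only Hspa1b was further above. In wild type replicate 2, Hspa1a was 1.29 above the other wild type hearts (2.44-fold), with 12 probe sets further above, and Hspa1b 0.95 above (1.93-fold), with 33 further above. The SD within the fit was 1.17 for Hspa1a and 1.24 for Hspa1b, larger than for 99.86% and 99.89% of tested probe sets.

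Across the 9 hearts Hspa1a and Hspa1b had Pearson's r of 0.971 (exact permutation p = 0.0022, two-sided) and Spearman's rho of 0.683 (exact permutation p = 0.0503), as the only relation between measures tested here. Without the hearts farthest from the median of Hspa1a, Col4a3-/-OPN-/- replicate 1 and wild type replicate 2, r was 0.462 over 7 hearts, so the relation rests on those hearts. The genes are so alike in sequence that a probe for one can take up RNA of the other, and how far each probe set reads its own gene is uncertain. A dim probe set that names both genes (17336820) was at 5.01, 4.76 and 4.69 in Col4a3-/-OPN-/-, at 4.75, 4.69 and 4.67 in Col4a3-/-, and at 4.84, 4.82 and 4.72 in wild type hearts. It too was highest in Col4a3-/-OPN-/- replicate 1.

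Hspa1a averaged 7.81 ± 1.88 in Col4a3-/-OPN-/-, 6.80 ± 0.15 in Col4a3-/- and 7.22 ± 0.74 in wild type hearts (SD, n = 3 each), and no neighbours in this order differed beyond their spread. Its difference was 1.01 in Col4a3-/-OPN-/- minus Col4a3-/- (95% interval -0.58 to 2.60, limma adjusted p = 0.5715) and 0.59 in Col4a3-/-OPN-/- minus wild type hearts (-1.001 to 2.17, adjusted p = 0.9991). Without Col4a3-/-OPN-/- replicate 1 these differences were -0.05 and -0.48, and without replicate 3 they were 1.72 and 1.30. In Col4a3-/- minus wild type hearts the difference was -0.42 (-2.01 to 1.16, limma adjusted p = 0.8999). It was 0.0048 when wild type replicate 2 was left out and -0.10 with the Y-linked level as a covariate. That covariate fit includes Col4a3-/-OPN-/- replicate 1, at 9.94, and was not repeated without it.

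Hspa1b averaged 7.11 ± 2.03 in Col4a3-/-OPN-/-, 5.72 ± 0.40 in Col4a3-/- and 6.38 ± 0.58 in wild type hearts (SD, n = 3 each), in the same order as Hspa1a. The difference in Col4a3-/-OPN-/- minus Col4a3-/- hearts was 1.38 (95% interval -0.30 to 3.06, limma adjusted p = 0.4619), 0.22 without Col4a3-/-OPN-/- replicate 1 and 2.10 without replicate 3. It was 0.73 in Col4a3-/-OPN-/- minus wild type hearts (-0.95 to 2.41, adjusted p = 0.9991), -0.43 without Col4a3-/-OPN-/- replicate 1 and 1.45 without replicate 3. In Col4a3-/- minus wild type hearts it was -0.65 (-2.33 to 1.03, limma adjusted p = 0.8389). There it was -0.34 without wild type replicate 2 and -0.28 with the Y-linked level as a covariate. The covariate fit includes Col4a3-/-OPN-/- replicate 1, at 9.43 for Hspa1b, and was not repeated without it.

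Immediate early genes (13 of 13 measured), which respond within minutes to many stimuli, averaged 7.40 in Col4a3-/-OPN-/- replicate 1 and 7.25 in wild type replicate 2, and 7.17 to 8.23 over all hearts. Airway markers averaged 6.41 in Col4a3-/-OPN-/- replicate 1, 6.22 in replicate 3 and 4.92 in replicate 2 of that genotype, and 5.06 in wild type replicate 2. The part of other tissues in the values of Hspa1a and Hspa1b was not tested.

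**Figure D2:**
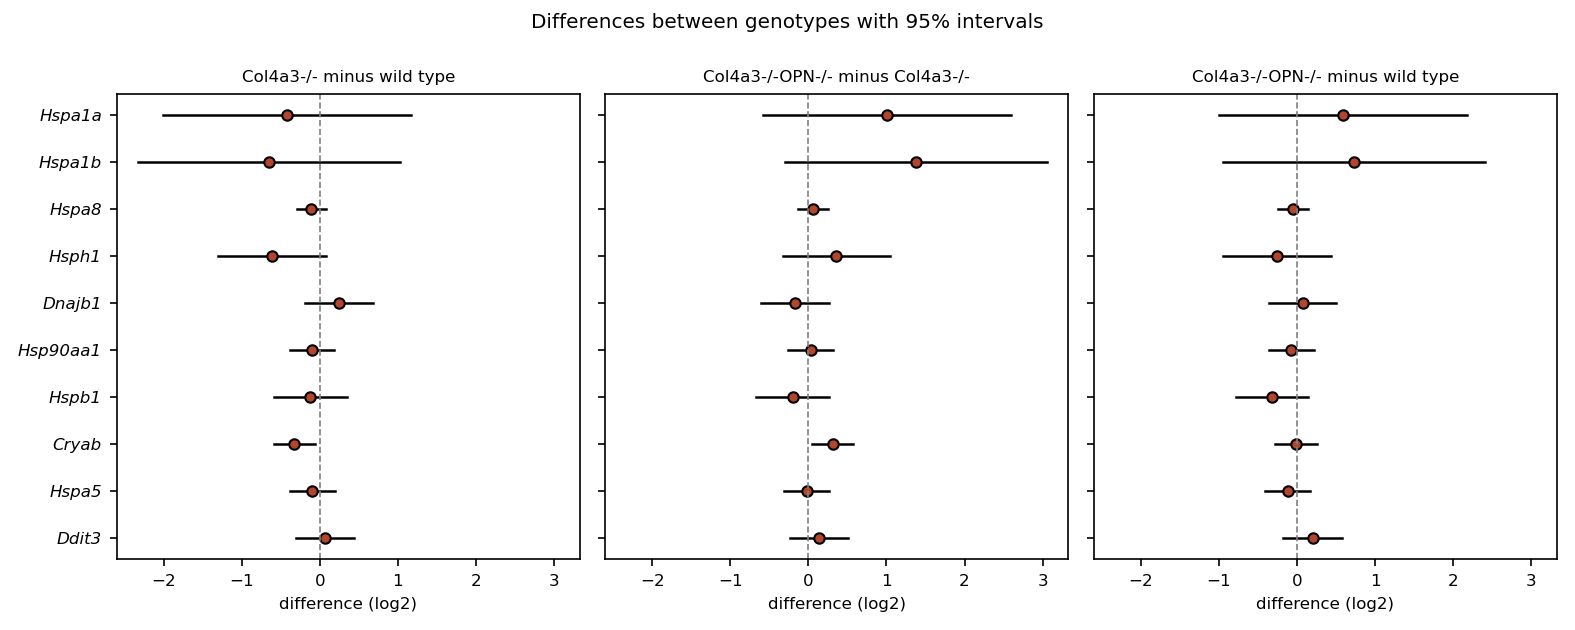
Log2 difference between genotypes for the 10 genes (points) with the 95% interval from the limma fit (lines), 1 panel per comparison, 1 probe set per gene (the one with the highest mean); the dashed line is no difference. The intervals of Hspa1a and Hspa1b span more than 3 log2 units, while those of Hspa8 and Hsp90aa1 all lie between -0.38 and 0.31; the interval of Cryab leaves out 0 in 2 panels before adjustment.

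Hspa8 encodes HSC70, the constitutive cytosolic HSP70, and its 4 probe sets did not behave alike. Probe set 17516365, with the highest mean signal, was at 11.72, 11.72 and 11.73 in Col4a3-/-OPN-/-, at 11.64, 11.61 and 11.75 in Col4a3-/-, and at 11.76, 11.90 and 11.66 in wild type hearts. All 9 hearts lay within 0.29 log2 units, and only 5.58% of tested probe sets had a smaller range. Its differences were -0.11 in Col4a3-/- minus wild type, 0.06 in Col4a3-/-OPN-/- minus Col4a3-/- and -0.05 in Col4a3-/-OPN-/- minus wild type hearts, with 95% intervals that all lay between -0.30 and 0.25. With each array centred on its own median, which shifted all tested probe sets by a median of -0.11 in Col4a3-/-OPN-/- minus Col4a3-/- hearts, the 0.06 became -0.06, as that scaling takes the same amount from every probe set.

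Probe set 17548379 of Hspa8 was at 6.84, 8.47 and 8.44 in Col4a3-/-OPN-/-, at 8.84, 8.66 and 8.71 in Col4a3-/-, and at 8.63, 8.26 and 8.11 in wild type hearts. Probe set 17548744 differed from it by at most 0.09 in any heart (r of 0.998 over 9 hearts), so the pair may read the same sequence and is not 2 independent measurements. Both were lowest in Col4a3-/-OPN-/- replicate 1, the heart with the highest Hspa1a and Hspa1b. There 17548379 stood at -1.62 relative to the other hearts of its genotype, and 4 tested probe sets were further below.

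Probe set 17434475 of Hspa8 was at 7.999, 8.28 and 8.18 in Col4a3-/-OPN-/-, at 8.86, 8.63 and 8.80 in Col4a3-/-, and at 8.90, 7.53 and 8.30 in wild type hearts. It was lowest in wild type replicate 2, the heart with the second highest Hspa1a. All 3 of these probe sets were lower in each Col4a3-/-OPN-/- than in each Col4a3-/- heart, with differences of -0.61 for 17434475 and -0.82 for the other pair (limma unadjusted p = 0.0475, 0.0435 and 0.0398, adjusted p = 0.3636, 0.3574 and 0.3526). Without Col4a3-/-OPN-/- replicate 1 the differences of the pair were -0.28 and -0.29, and that of 17434475 was -0.53. Probe set 17516365 of the same gene had 0.06 in that comparison, so the probe sets disagree on the sign, and which transcript or related sequence the other 3 read is not known here.

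Over the 15 probe sets, groups did not overlap at 4 in Col4a3-/-OPN-/- against Col4a3-/- hearts, all lower in Col4a3-/-OPN-/- (6.48% of all tested were lower and 10.1% higher without overlap, 16.5% in all). They were these 3 probe sets of Hspa8, of which 2 read alike, and the dim probe set 17286958 of Hspb1, which the filter kept only through the other genotypes. In Col4a3-/- against wild type hearts groups did not overlap at 2, the pair 17548379 and 17548744, both higher in Col4a3-/- hearts by 0.40 and 0.37 (4.58% of all tested were higher and 7.9% lower without overlap, 12.5% in all). The limma adjusted p-values were 0.7816 and 0.7996. With the Y-linked level as a covariate the differences were 0.05 and 0.0080. A low Y-linked level was seen in 2 of the 3 Col4a3-/- hearts and no wild type heart. All 9 hearts set the slope of that covariate. Among Col4a3-/-OPN-/- hearts 17548379 was at 6.84 and 8.44 with a high Y-linked level and at 8.47 with a low one. Among Col4a3-/- hearts it was at 8.66 with a high level and at 8.84 and 8.71 with a low one. The covariate fit was not repeated without Col4a3-/-OPN-/- replicate 1, the heart at 6.84. In Col4a3-/-OPN-/- against wild type hearts the groups overlapped at all 15 (13.2% of all tested did not, 7.55% higher and 5.65% lower).

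Hsph1 encodes HSP105, a large HSP70-like protein that exchanges nucleotide on HSP70, and it was spread most widely within Col4a3-/- hearts. Its probe set (17455507) was at 7.73, 7.64 and 7.38 in Col4a3-/-OPN-/-, at 7.97, 7.33 and 6.38 in Col4a3-/-, and at 7.88, 7.98 and 7.65 in wild type hearts. Col4a3-/- replicate 1 stood among the highest hearts and replicate 3 was the lowest of all 9. The means were 7.58 ± 0.18 in Col4a3-/-OPN-/-, 7.23 ± 0.80 in Col4a3-/- and 7.84 ± 0.17 in wild type hearts (SD, n = 3 each). The difference in Col4a3-/- minus wild type hearts was -0.61 (95% interval -1.30 to 0.08, limma adjusted p = 0.6324). It was -0.19 without Col4a3-/- replicate 3 and -0.98 without replicate 1. The difference was 0.36 in Col4a3-/-OPN-/- minus Col4a3-/- hearts (adjusted p = 0.6444), -0.06 without Col4a3-/- replicate 3 and 0.73 without replicate 1. Hsph1 in Col4a3-/-OPN-/- replicate 1 was only 0.22 above the other hearts of its genotype, where Hspa1a was 3.19 above.

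Dnajb1 encodes HSP40, the J-domain partner that hands unfolded protein to HSP70. It was at 6.24, 6.26 and 6.43 in Col4a3-/-OPN-/-, at 6.20, 6.37 and 6.89 in Col4a3-/-, and at 6.04, 6.10 and 6.58 in wild type hearts (probe set 17502954). It was highest in Col4a3-/- replicate 3, where Hsph1 was lowest, and it was not raised in Col4a3-/-OPN-/- replicate 1. Its differences were 0.25 in Col4a3-/- minus wild type, -0.17 in Col4a3-/-OPN-/- minus Col4a3-/- and 0.07 in Col4a3-/-OPN-/- minus wild type hearts. The smallest limma adjusted p was 0.7246. Without Col4a3-/- replicate 3 the first 2 differences were 0.05 and 0.03, and without Col4a3-/- replicate 1 they were 0.39 and -0.32.

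Hsp90aa1 encodes the inducible cytosolic HSP90, which holds signalling proteins and receptors in a form ready for activation. It was at 7.78, 7.62 and 7.47 in Col4a3-/-OPN-/-, at 7.57, 7.63 and 7.59 in Col4a3-/-, and at 7.71, 7.79 and 7.58 in wild type hearts (probe set 17284002). The 9 hearts spanned only 0.32 log2 units. The highest 2 were again wild type replicate 2 and Col4a3-/-OPN-/- replicate 1, which the other hearts followed closely. Its differences were -0.10, 0.03 and -0.07 in the 3 comparisons, with 95% intervals that all lay between -0.38 and 0.31. The 0.03 of Col4a3-/-OPN-/- minus Col4a3-/- hearts became -0.09 with centred arrays, by the same shift.

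The small heat shock proteins bind unfolding protein without using ATP. Cryab, which encodes alpha-B crystallin, a chaperone of desmin and the sarcomere, was at 11.70, 11.91 and 11.86 in Col4a3-/-OPN-/-, at 11.70, 11.53 and 11.30 in Col4a3-/-, and at 11.83, 12.00 and 11.68 in wild type hearts (probe set 17517132). Col4a3-/- replicates 2 and 3 were the lowest of the 9 hearts, and replicate 1 overlapped with the other genotypes. The difference in Col4a3-/- minus wild type hearts was -0.33 (SE 0.12, limma unadjusted p = 0.0213, adjusted p = 0.5117). That in Col4a3-/-OPN-/- minus Col4a3-/- hearts was 0.31 (SE 0.12, unadjusted p = 0.0268, adjusted p = 0.3147). That in Col4a3-/-OPN-/- minus wild type hearts was -0.02 (95% interval -0.28 to 0.25). Without Col4a3-/- replicate 3 the first 2 were -0.22 and 0.20, and without Col4a3-/- replicate 1 they were -0.42 and 0.40. Smooth muscle and pericyte markers, as given above, were lower in the Col4a3-/- than in all other hearts, and their part in the Cryab values was not tested. Cryab is the only one of the 10 genes whose probe set with the highest mean was under an unadjusted p of 0.05 in any comparison.

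The second Cryab probe set (17548750) was at 6.56, 7.87 and 7.92 in Col4a3-/-OPN-/-, at 7.86, 7.51 and 7.18 in Col4a3-/-, and at 7.84, 7.93 and 7.52 in wild type hearts. As with 2 of the Hspa8 probe sets, its lowest heart was Col4a3-/-OPN-/- replicate 1, which stood at -1.33 relative to the other hearts of its genotype, while 17517132 stood at -0.18. Its difference in Col4a3-/-OPN-/- minus Col4a3-/- hearts was -0.07, against 0.31 for 17517132, and it became 0.38 without Col4a3-/-OPN-/- replicate 1. Within Col4a3-/- hearts both probe sets put replicate 1 highest and replicate 3 lowest.

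Hspb1 encodes HSP27 (HSP25 in the mouse), a small heat shock protein tied to actin filaments. It was at 8.64, 8.75 and 8.88 in Col4a3-/-OPN-/-, at 8.91, 8.56 and 9.41 in Col4a3-/-, and at 8.88, 9.40 and 8.96 in wild type hearts (probe set 17443342). Col4a3-/- replicate 3 and wild type replicate 2 were highest, and each genotype overlapped with the others. Its differences were -0.12 in Col4a3-/- minus wild type, -0.20 in Col4a3-/-OPN-/- minus Col4a3-/- and -0.32 in Col4a3-/-OPN-/- minus wild type hearts, with a smallest limma adjusted p of 0.7047. The -0.12 was 0.08 without Col4a3-/- replicate 2, 0.04 without wild type replicate 2 and -0.35 without Col4a3-/- replicate 3. The -0.20 was 0.03 without Col4a3-/- replicate 3 and -0.40 without replicate 2, and the -0.32 was -0.16 without wild type replicate 2.

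A second probe set of Hspb1 (17286958) was dim. It was at 5.001, 4.92 and 5.21 in Col4a3-/-OPN-/-, at 5.51, 5.32 and 5.54 in Col4a3-/-, and at 5.50, 5.15 and 5.28 in wild type hearts. Its Col4a3-/-OPN-/- mean of 5.04 was below 5.21, the median over all probe sets that the filter used, so it was tested only because of its level in the other genotypes. Its p-values enter the counts given above, but no result is drawn from them. Its differences of -0.41 in Col4a3-/-OPN-/- minus Col4a3-/- and -0.27 in Col4a3-/-OPN-/- minus wild type hearts are therefore given as values only. Probe set 17443342 of Hspb1 had -0.20 in the first of these comparisons and overlapped between the groups.

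**Figure D3:**
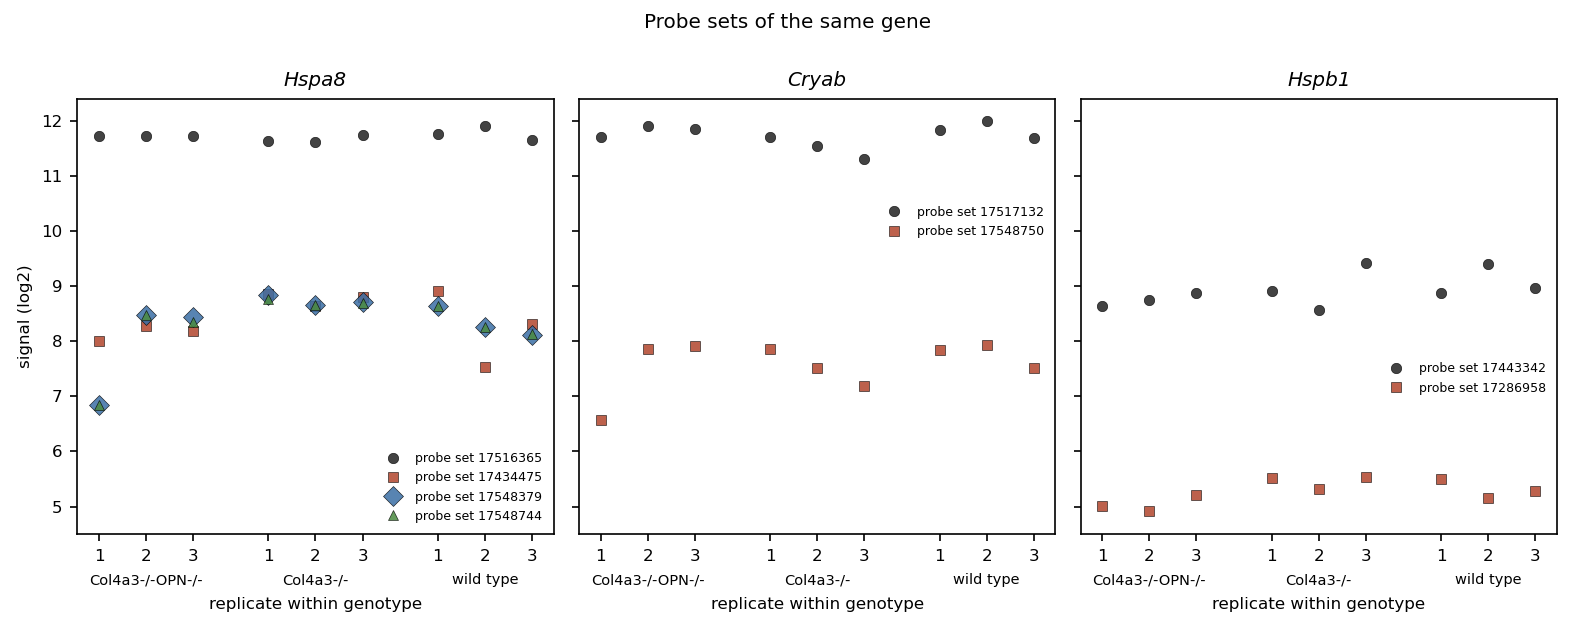
Log2 signal in each heart for every probe set of the 3 genes that have more than 1, with hearts on the x axis by genotype and replicate. In Hspa8 and Cryab the probe sets with the highest mean stay level in Col4a3-/-OPN-/- replicate 1. Others drop there, to 6.84 in Hspa8 and 6.56 in Cryab. In Hspb1 the dim probe set 17286958 lies lower in all Col4a3-/-OPN-/- than in all Col4a3-/- hearts. The filter kept it only through the other genotypes, and 6.48% of all tested probe sets were lower without overlap in that comparison. Probe set 17443342 of Hspb1 overlaps between these groups.

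The 2 genes of endoplasmic reticulum stress passed no test either. Hspa5, which encodes the lumenal chaperone BiP, was at 8.78, 8.90 and 8.61 in Col4a3-/-OPN-/-, at 8.80, 8.75 and 8.82 in Col4a3-/-, and at 8.88, 9.05 and 8.72 in wild type hearts (probe set 17370103). Its differences were -0.09 in Col4a3-/- minus wild type, -0.02 in Col4a3-/-OPN-/- minus Col4a3-/- and -0.12 in Col4a3-/-OPN-/- minus wild type hearts, with 95% intervals that all lay between -0.40 and 0.26. It was highest in wild type replicate 2, and Col4a3-/-OPN-/- replicate 1, with the highest Hspa1a, lay 0.03 above the other hearts of its genotype.

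Ddit3 was at 6.42, 6.96 and 6.75 in Col4a3-/-OPN-/-, at 6.58, 6.39 and 6.74 in Col4a3-/-, and at 6.64, 6.29 and 6.58 in wild type hearts (probe set 17237978). The lowest hearts were wild type replicate 2, Col4a3-/- replicate 2 and Col4a3-/-OPN-/- replicate 1, so the 2 hearts highest in Hspa1a were among the lowest in Ddit3. Its differences were 0.07 in Col4a3-/- minus wild type, 0.14 in Col4a3-/-OPN-/- minus Col4a3-/- and 0.20 in Col4a3-/-OPN-/- minus wild type hearts, with 95% intervals of -0.31 to 0.44, -0.24 to 0.51 and -0.17 to 0.58. Single hearts moved these values: the last 2 were 0.0116 and 0.08 without Col4a3-/-OPN-/- replicate 2, and 0.28 and 0.35 without replicate 1, while the first was -0.04 without wild type replicate 2. The range of Ddit3 over hearts, 0.66, was wider than that of 59.5% of tested probe sets, and that of Hspa5, 0.44, wider than that of 25.2%.

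Beyond the 10 genes, 8 lists of other chaperone and stress genes were read from the same fit, 1 probe set per gene, and 0 of their genes passed the adjusted threshold of the limma fit in any of the 3 comparisons. At an unadjusted limma p under 0.05, no list, of 3 to 23 tested genes, had more than 2 genes in any comparison. Only the HSP70 list had 2, of 17, both lower in Col4a3-/- than in wild type hearts (5.96% of all tested). In either direction, 8.35% of all tested probe sets were under 0.05 in Col4a3-/- minus wild type hearts. The share was 13.6% in Col4a3-/-OPN-/- minus Col4a3-/- and 3.68% in Col4a3-/-OPN-/- minus wild type hearts. Below 0 were 55.0% of all tested probe sets in Col4a3-/- minus wild type hearts. The share was 42.3% in Col4a3-/-OPN-/- minus Col4a3-/- and 46.9% in Col4a3-/-OPN-/- minus wild type hearts. Among other HSP70 proteins, nucleotide exchange factors and co-chaperones, 17 of 18 were tested, and 12 were below 0 in Col4a3-/- minus wild type hearts (median -0.05, against -0.02 over all tested probe sets). The lowest were Hspa12b at -0.50 and St13, which encodes a cofactor of HSC70, at -0.26. In Col4a3-/-OPN-/- minus Col4a3-/- hearts 9 of 17 were below 0 (median -0.01), and in Col4a3-/-OPN-/- minus wild type hearts also 9 (median -0.05), with Bag5, a nucleotide exchange factor, lowest in both at -0.35 and -0.41.

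Of 16 tested J-domain proteins, 7 were below 0 in Col4a3-/- minus wild type hearts (median 0.03). Dnajb5 was lowest at -0.54 (limma unadjusted p = 0.0101, adjusted p = 0.4908) and Dnajc3, an inhibitor of the kinase PERK, highest at 0.32. Without Col4a3-/- replicate 3 the difference of Dnajc3 was -0.09. Dnajc10, a disulphide reductase of the endoplasmic reticulum, was highest in Col4a3-/-OPN-/- minus Col4a3-/- hearts at 0.37 (adjusted p = 0.2918). Small heat shock proteins other than Hspb1 and Cryab (5 of 6 tested) had medians of -0.06, 0.08 and 0.01 in the 3 comparisons. Among them Hspb8, the partner of BAG3 in chaperone-assisted autophagy, had 0.28 in Col4a3-/-OPN-/- minus Col4a3-/- hearts (adjusted p = 0.3034). Hspb7, a cardiac member, was at 11.83 ± 0.08 in Col4a3-/-OPN-/-, 11.90 ± 0.07 in Col4a3-/- and 11.90 ± 0.06 in wild type hearts (SD, n = 3 each). All 10 chaperonin subunits were tested, and their medians were -0.02, -0.03 and -0.04.

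HSP90 proteins and their co-chaperones formed the list whose median lay farthest from that of all tested probe sets in Col4a3-/- minus wild type hearts. It had 6 of 9 tested genes below 0 (55.0% of all tested). Its median was -0.21 (-0.30 to -0.09 over the 21 alternatives), against -0.02 over all tested. In Col4a3-/-OPN-/- minus Col4a3-/- hearts 8 of 9 were above 0 and 1 below, where 42.3% of all tested were below. The median was 0.11 (-0.0028 to 0.20 over the alternatives), against 0.04 over all tested. The smooth muscle and pericyte markers moved the same way between these genotypes, and the part of tissue makeup was not tested. Of the 9 genes, 5 (55.6%) had their lowest value of all hearts in Col4a3-/- replicate 3 and 1 (11.1%) its highest. Over all tested probe sets these shares were 26.1% and 21.3%. Fkbp4, a co-chaperone of steroid receptors, was at 9.27, 9.31 and 9.18 in Col4a3-/-OPN-/-, at 9.52, 8.90 and 8.21 in Col4a3-/-, and at 9.68, 9.71 and 9.48 in wild type hearts. Col4a3-/- replicate 3 was lowest and replicate 1 within the range of the other genotypes, the order seen for Hsph1 and Cryab. The difference in Col4a3-/- minus wild type hearts was -0.75 (limma unadjusted p = 0.0135, adjusted p = 0.4963), and -0.42 without Col4a3-/- replicate 3.

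Unc45b, a chaperone of muscle myosin, was at 8.72, 8.60 and 8.65 in Col4a3-/-OPN-/-, at 8.55, 8.23 and 7.67 in Col4a3-/-, and at 8.47, 8.69 and 8.55 in wild type hearts. Col4a3-/- replicate 3 was lowest. Its difference in Col4a3-/-OPN-/- minus Col4a3-/- hearts was 0.51 (limma adjusted p = 0.3121), and 0.26 without Col4a3-/- replicate 3. Chordc1, an HSP90-binding protein, had -0.43 in Col4a3-/- minus wild type hearts, and -0.25 without that replicate. Fkbp5, another co-chaperone of steroid receptors and a gene induced by glucocorticoid, ran the other way: it was at 8.22 in Col4a3-/- replicate 3, the highest of the 9 hearts, and at 6.40 to 7.98 in the others. Its difference in Col4a3-/- minus wild type hearts was 0.16 (limma adjusted p = 0.9395). The mitochondrial chaperonin gene Hspd1 was at 8.75 in Col4a3-/- replicate 3 and at 9.41 to 9.69 in the other 8 hearts.

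Unfolded protein response genes lay on both sides in Col4a3-/- replicate 3, as all tested probe sets did. Of 23 tested unfolded protein response genes, 13 were below 0 in Col4a3-/- minus wild type (median -0.03), 13 in Col4a3-/-OPN-/- minus Col4a3-/- (median -0.02) and 14 in Col4a3-/-OPN-/- minus wild type hearts (median -0.04). Xbp1, a transcription factor of this response, was at 9.44 in Col4a3-/- replicate 3 and at 8.29 to 9.01 in the other 8 hearts. Atf4, the transcription factor that acts upstream of Ddit3, was at 8.36 there and at 6.99 to 7.57 in the others. Dnajc3 was at 9.13 there and at 7.65 to 8.51 in the others. In all, 7 of the 23 genes (30.4%) had their highest value in Col4a3-/- replicate 3 and 6 (26.1%) their lowest. Over all tested probe sets these shares were 21.3% and 26.1%. The median deviation of the list there was 0.0044 from the mean over hearts. In wild type replicate 2, 9 of the 23 (39.1%) had their highest value and 2 (8.7%) their lowest, against 8.96% and 8.26% of all tested.

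The 7 highest in Col4a3-/- replicate 3 were Xbp1, Atf4, Dnajc3, Herpud1 (11.96), Canx (10.88), Dnajb9 (9.85) and Ern1 (7.32). The last 4 of these were picked after their values were seen. Both the highest and the 6 lowest included chaperone genes, and the lowest there were as follows. Calr, which encodes the lumenal chaperone calreticulin, was at 10.05 there and at 10.28 to 10.82 in the other 8 hearts, and Creld2 at 6.97 there and at 7.27 to 8.02 in the others. The other 4 of the lowest were also picked after their values were seen. They were Hsp90b1 (the HSP90 of the endoplasmic reticulum) at 10.33 and Pdia6 (a disulphide isomerase) at 8.29. With them were Hyou1 (a large HSP70-like chaperone) at 7.45 and Atf6b (a relative of the stress sensor ATF6) at 6.31.

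Of 11 tested integrated stress response targets, 7 were below 0 in Col4a3-/- minus wild type (median -0.08), 6 in Col4a3-/-OPN-/- minus Col4a3-/- (median -0.04) and 5 in Col4a3-/-OPN-/- minus wild type hearts (median 0.0020). Ppp1r15a, which encodes GADD34, a phosphatase subunit that restores translation, was at 8.73 in Col4a3-/- replicate 3 and at 6.24 to 7.16 in the other 8 hearts. Its difference in Col4a3-/- minus wild type hearts was 0.37, and -0.38 without that replicate. Of the 11 genes, 3 (27.3%) had their highest value there and 0 their lowest, against 21.3% and 26.1% of all tested probe sets. Ddit3 itself was at 6.74 in Col4a3-/- replicate 3, within the 6.29 to 6.96 of the other hearts, and Hspa5 was at 8.82, within 8.61 to 9.05. In that heart markers of endothelial activation and liver were also high, as given above, and their part in these values was not tested.

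**Figure D4:**
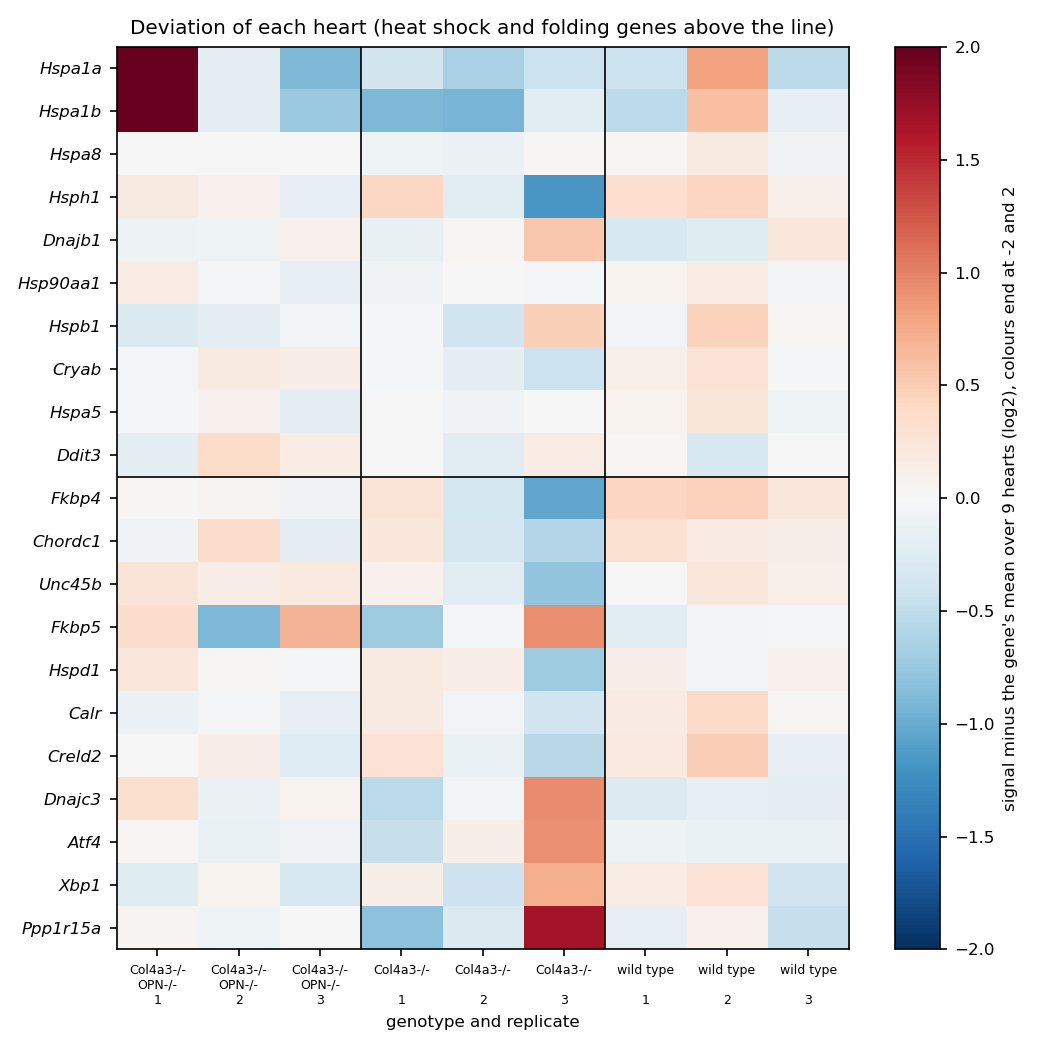
Deviation of each heart from the gene's mean over the 9 hearts in log2 units (colour, ending at -2 and 2), with hearts in columns by genotype and replicate. The 10 heat shock and folding genes are above the line and 11 genes of the other lists, picked after their values were seen, below it. Hspa1a and Hspa1b are high in Col4a3-/-OPN-/- replicate 1 and less so in wild type replicate 2; in Col4a3-/- replicate 3 Hsph1, Fkbp4, Chordc1, Unc45b, Hspd1, Calr and Creld2 are low and Dnajb1, Fkbp5, Dnajc3, Atf4, Xbp1 and Ppp1r15a high.

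Of the 4 listed heat shock factors and regulators 3 were tested, and Hsf1 was not analysed here. Hsf2 was at 7.07, 7.05 and 7.35 in Col4a3-/-OPN-/-, at 7.06, 7.03 and 7.69 in Col4a3-/-, and at 7.26, 7.04 and 7.08 in wild type hearts. Its highest heart was Col4a3-/- replicate 3. Hsbp1, which encodes a protein that binds HSF1, was at 10.27 in Col4a3-/-OPN-/- replicate 1 and at 10.68 to 10.97 in the other 8 hearts. The difference of Hsbp1 in Col4a3-/-OPN-/- minus Col4a3-/- hearts was -0.29 (limma adjusted p = 0.3859).

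The pattern over hearts of the 8 cytosolic genes was summarised as the mean of their signals, each centred on its mean over the 9 hearts. This mean was 0.70, -0.04 and -0.22 in Col4a3-/-OPN-/-, -0.15, -0.31 and -0.15 in Col4a3-/-, and -0.10, 0.33 and -0.06 in wild type hearts, and it follows Hspa1a and Hspa1b, which vary most. The 5 other tested genes most like it over the 9 hearts were Nck2 (Pearson's r of 0.944), Trappc3 (0.918), Arrdc3 (0.917), Rbm41 (0.916) and Tdrkh (0.890). Of these Arrdc3, which encodes an arrestin-domain protein, had the widest range. It was at 9.83, 8.999 and 8.72 in Col4a3-/-OPN-/-, at 8.77, 8.77 and 8.45 in Col4a3-/-, and at 8.72, 9.44 and 8.57 in wild type hearts, highest in the same 2 hearts as Hspa1a.

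The 5 genes most like Hspa5 were Mir763 (r of 0.939), Rnf187, Snapc2, Vopp1 and Yipf5 (0.872), and those most like Ddit3 were Mrps18b (0.915), Krt33b, A930015D03Rik, Kif17 and Ank1 (0.885). No gene of the unfolded protein response list was among either set of 5. With 23 genes of that list among 13085 tested genes, a set of 5 would seldom hold one, so no conclusion is drawn. These correlations were the highest of all tested genes over only 9 hearts, which share array, genotype and tissue makeup, and they are given as a description.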

How the data were processed

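Total RNA of 9 hearts was extracted with the Mirvana Paris kit (per the labels' protocols). Each deposited value is the log2 signal of a probe set, made with RMA per the submitters' processing notes, a method that corrects background, normalizes across arrays and summarises probes; no version of it is given in the sources used here. A kit for labelling small RNA is named in the labels, whereas the probe annotation is that of a whole-transcript mouse gene array, so how the RNA was labelled is uncertain. Of 33793 probe sets, 23521 had 1 gene symbol in the platform annotation, 1814 had several and 8458 were not listed.

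From these log2 signals, probe sets with 1 symbol and a mean above 5.21, the median over all, were tested (13650 probe sets of 13085 genes; 13586 matched the reference table by identifier). Groups were taken from the sample titles. All 9 arrays entered 1 linear model in limma 3.58.1 (R 4.3.3) with an intensity trend, 3 contrasts and an F-test, with Benjamini-Hochberg adjustment over all tested probe sets at 0.05. Precision is limited by 3 hearts per genotype, since arrays give no counts. An exact permutation test of 3 against 3 hearts cannot go below 0.1 and was not used for single genes. In data simulated for the Col4a3-/- and wild type hearts (13650 probe sets, 200 changed, 50 at each size), the fit recovered 16% of changes of 0.5 log2, 72% of 1, 98% of 2 and 96% of 3, with 6 false among 147 calls. Noise was drawn independently for each value, with no shift of a whole heart. These rates are averages over probe sets and do not hold for Hspa1a and Hspa1b, whose SD within the fit was 1.17 and 1.24.

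The genes, gene lists and marker lists were chosen with earlier results of these data known. All probe sets of the 10 genes are named, and from each list the 2 highest and the 2 lowest differences per comparison could be named. Replicate numbers did not pair the hearts: deviations of same-numbered hearts from their group means had r of -0.19 to 0.23, and the best match carried the same number in 7 of 18 cases. Alternatives were another normalization, array centring, other filters, probe set and moderation choices, array weights, only the arrays compared, a replicate block, the Y-linked level as a covariate, and each heart left out. Spp1, Hsf1, Hsp90ab1, Hspb2 and Dnaja1 were not analysed here, since no probe set carried such a symbol alone, and Fgf21, Derl3 and Ptges3 were below the filter. None of 4 blood markers had such a probe set either. Promoter sequences and the reference table are RefSeq, assembly GRCm38.p6.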

Additional observations from a re-analysis of the deposited data

How the results depend on the processing

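Under all 21 alternatives, 0 of the tested probe sets of the 10 genes passed the adjusted threshold in any of the 3 comparisons, and 0 genes of the 8 other lists did. Apart from the dim Hspb1 probe set 17286958, the smallest adjusted p was 0.1604 (Hsph1, Col4a3-/- minus wild type), and none passed the F-test under the alternatives that allow it. The median difference over the probe sets lay between -0.16 and -0.01 in Col4a3-/- minus wild type, -0.14 and 0.10 in Col4a3-/-OPN-/- minus Col4a3-/-, and -0.15 and -0.03 in Col4a3-/-OPN-/- minus wild type hearts. The replicate block left the count for the 10 genes at 0 in each comparison and gave 0 calls over all probe sets in Col4a3-/-OPN-/- minus Col4a3-/- hearts, against 6 without the block. That count was also 0 with the Y-linked level as a covariate and without Col4a3-/-OPN-/- replicate 1, 2 with centred arrays and 22 without Col4a3-/- replicate 2. Over all probe sets Col4a3-/- minus wild type had 0 to 6 calls and Col4a3-/-OPN-/- minus wild type 0 to 3. The difference of Ddit3 in Col4a3-/- minus wild type hearts was -0.17 with the Y-linked covariate; the cause was not tested. Those of Hsp90aa1 (-0.09) and Hspa8 17516365 (-0.06) in Col4a3-/-OPN-/- minus Col4a3-/- hearts with centred arrays follow from the shift of -0.11 that this scaling gives every probe set. The median of each other list lay between -0.30 and 0.24 under every alternative. The SE of a difference ran from 0.086 (Hspa8 17516365) to 0.76 (Hspa1b), so the size that could be detected differed widely between the 10 genes.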

Other observations

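Probe sets shared by one of the 10 genes and another gene were kept out of the comparisons. The one that names Hspb2 and Cryab, neighbouring small heat shock protein genes, was at 8.53, 8.74 and 8.63 in Col4a3-/-OPN-/-, at 9.14, 8.55 and 8.01 in Col4a3-/-, and at 8.67, 8.64 and 8.59 in wild type hearts. The Col4a3-/- hearts held both the highest and the lowest value, with replicate 1 highest and replicate 3 lowest, as for Cryab within that genotype. The one that names Hspa8 and Snord14e, a small nucleolar RNA gene, was at 8.62, 8.39 and 7.99 in Col4a3-/-OPN-/-, at 8.42, 8.74 and 8.54 in Col4a3-/-, and at 8.22, 8.03 and 8.30 in wild type hearts. It was among the highest in Col4a3-/-OPN-/- replicate 1, where 2 other probe sets of Hspa8 were lowest.

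Among genes of protein quality control in the endoplasmic reticulum, Sel1l, which encodes an adaptor of the ubiquitin ligase that clears misfolded protein, was at 8.54, 8.27 and 8.29 in Col4a3-/-OPN-/-, at 7.74, 8.04 and 8.29 in Col4a3-/-, and at 8.49, 8.47 and 8.33 in wild type hearts. Each Col4a3-/- heart was below each wild type heart, by -0.41 on average (limma adjusted p = 0.5290). In that comparison 7.9% of all tested probe sets were lower without overlap. Calr was at 10.32, 10.39 and 10.28 in Col4a3-/-OPN-/-, at 10.62, 10.38 and 10.05 in Col4a3-/-, and at 10.60, 10.82 and 10.46 in wild type hearts. Each Col4a3-/-OPN-/- heart was below each wild type heart, by -0.30 on average (limma adjusted p = 0.9991), where 5.65% of all tested were lower without overlap. Chac1, a glutathione-degrading enzyme gene induced through ATF4, was at 7.51 in wild type replicate 2, the wild type heart with the highest Hspa1a, and at 6.14 to 6.80 in the other 8 hearts.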
